A study of Mus musculus with 8 samples.

Results

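Fragments of 28S rRNA in mouse sperm were examined. The members were all distinct small RNA sequences that carried 28S-rRNA as their only annotation, with no tRNA or miRNA name. There were 81524 such fragments among the 5724730 distinct sequences of 8 samples, and they held 17126823 of 115750464 reads. Each sample held between 31623 and 46663 of them. Fragments with at least 50 reads in at least 4 samples were tested, which left 1837 of the 28S fragments among 12077 tested sequences of all kinds. The 1837 tested fragments carried 87.5% of all 28S reads. Just inside this limit, 163 fragments had 50 to 54 reads in their fourth-highest sample and a median level of 3.74 RPM (reads per 1000000 reads of the sample). Just outside it, 189 fragments had 45 to 49 reads and a median of 3.42 RPM.

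The sperm came from 4 activated mice (Agrp Cre/+) and 4 control mice (Agrp +/+), with 1 library per mouse. All 8 males had received AAV9 carrying hSYN-DIO-hM3D(Gq)-mCherry in the arcuate nucleus at 8 weeks of age, and all 8 received CNO at 1 mg/kg 3 weeks later, after 1 h without food. The receptor is made under a neuronal promoter and only where Cre is present, so that CNO can excite AgRP neurons, which drive hunger, in the activated mice only. The groups differ in the Cre allele as well as in neuronal activation, and the 2 cannot be told apart. Sperm was collected from the caudae epididymides 4 h after CNO.

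The 28S rRNA is the large RNA of the cytoplasmic 60S ribosomal subunit and holds the site where peptide bonds are formed. It is cut from the 45S precursor, which also contains 18S and 5.8S rRNA. Mature sperm translate little and keep mostly broken rRNA, so that rRNA-derived small RNAs are an abundant class in sperm libraries.

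Since no 28S sequence was at hand, positions were read from the fragments themselves. Fragments that overlapped exactly by at least 18 nt were joined, which gave 16 stretches with 4771 bases in all and no branching overlap. All fragments lay on 1 strand, and 99.995% of 28S reads had a single place. Genome coordinates were not used here, and a fragment is described by its stretch, its bases in that stretch and whether it matched the mm10 genome. Stretch 7 (257 bases) began at the 5′ end of 28S. At its first base 2918250 reads of 28S fragments started, whereas 14519 reads named 45S ran into the same bases with 1 to 13 more bases upstream. Stretch 1 (1490 bases) held the 3′ end. At its base 1482, 7464961 reads stopped, whereas 30549 reads ran past it.

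Both ends gave ladders of nested fragments, and these sequences are shown because they carried most of the 28S reads. Of the 10 fragments with the highest mean RPM, 4 stopped at the 3′ end and differed in their first bases. In these, capitals mark the bases that precede the 42 nt fragment.

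3′ end, 42 nt: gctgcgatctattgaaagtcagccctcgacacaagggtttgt
3′ end, 43 nt: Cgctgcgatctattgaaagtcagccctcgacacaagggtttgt
3′ end, 44 nt: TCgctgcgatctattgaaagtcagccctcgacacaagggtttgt
3′ end, 45 nt: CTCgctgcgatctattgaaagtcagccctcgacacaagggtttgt

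A further 5 of the 10 started at the 5′ end and differed in their last bases. Their ranks rested in part on control replicate 3, without which the 40 nt form moved from rank 9 to 37 and the 34 nt form from rank 10 to 14, while the other 8 stayed among the 10. In these, capitals mark the bases that follow the 34 nt fragment.

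5′ end, 34 nt: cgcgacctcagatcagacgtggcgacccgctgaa
5′ end, 35 nt: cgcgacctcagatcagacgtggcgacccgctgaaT
5′ end, 36 nt: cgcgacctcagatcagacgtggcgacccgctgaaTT
5′ end, 37 nt: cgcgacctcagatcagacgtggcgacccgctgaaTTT
5′ end, 40 nt: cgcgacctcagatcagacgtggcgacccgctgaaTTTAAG

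Overlapping fragments were then grouped into families. A fragment joined the most abundant fragment that held at least 0.5 of its bases, and 99 families had a mean of at least 100 RPM and together 96.6% of the mean 28S level. The 2 end families held 66.3% and the first 8 families 79.1%. The leading fragments of families 3 to 8, all inside 28S, are shown in lower case without a marked part, and the 15 nt fragment of family 5 was the remaining one of the 10 most abundant.

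Family 3, stretch 3, bases 414 to 455: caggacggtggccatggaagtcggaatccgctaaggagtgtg
Family 4, stretch 1, bases 1152 to 1196: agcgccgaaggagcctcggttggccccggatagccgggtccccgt
Family 5, stretch 2, bases 32 to 46: agggcgccctggaat
Family 6, stretch 4, bases 13 to 28: atcccggggccgagga
Family 7, stretch 7, bases 131 to 167: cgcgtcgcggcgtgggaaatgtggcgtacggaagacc
Family 8, stretch 2, bases 538 to 554: ggttccggagcgggagg

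Some samples stood apart from others of their group. Total reads ranged from 9297271 to 23123740 and 28S reads from 1448655 to 3645541. Mitochondrial rRNA was named Mt_rRNA, 16S or 12S. The share of reads named Mt_rRNA was 0.123% to 0.182% in activated replicates 1 and 4 and control replicates 2 and 4. In the other 4 samples this share was 1.09% to 1.89%. Reads named 16S were more frequent, with 16503 to 64477 RPM. All 12 testis and sperm miRNAs of a marker list were present in every sample, with a sum of 32738 to 54007 RPM in activated samples and 25836 to 46135 RPM in control samples. In control replicate 4, the 4 miRNAs of muscle and vessel summed to 35309 RPM, whereas the other 7 samples had 138 to 393 RPM. The 7 miRNAs of epididymal epithelium summed to 19420 RPM in the same sample, against 1085 to 3476 RPM in the others. The 4 erythrocyte miRNAs moved with the groups, with 395, 119, 161 and 110 RPM in the activated mice and 344, 681, 1388 and 1033 RPM in the controls, so that only activated replicate 1 and control replicate 1 crossed. A read named for several miRNAs was counted for each of them. In the erythrocyte list miR-486a and miR-486b had nearly equal values, with 97.4 and 97.0 RPM in activated replicate 1. Most of their reads were therefore probably counted for both. The 4 leukocyte miRNAs summed to 398 to 862 and 295 to 553 RPM. No list had a member at 0. In such bulk samples, fewer cells of a type and less RNA per cell cannot be told apart. The part of these cells in the results below was not tested. The 28S total, the fragments without a genome match and both end families are given also without control replicate 4 and without control replicate 3. In control replicate 3 the 5′ end fragments were far above those of the other mice.

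The first comparison asked whether AgRP neuron activation changed the total amount of 28S fragments. These fragments made up 112264, 143195, 157971 and 153957 RPM in activated samples and 133525, 157654, 249983 and 107410 RPM in control samples. Control replicate 3 was the highest and control replicate 4 the lowest, and the groups overlapped. The means were 141847 ± 20685 RPM (SD, n = 4) and 162143 ± 62050 RPM (SD, n = 4). The activated mean was 0.875 times the control mean (two-sided exact permutation test, p = 0.771). The smallest p that 4 mice against 4 can give is 0.0286. Without control replicate 3 the ratio was 1.07 (exact p = 0.543), and without control replicate 4 it was 0.786 (exact p = 0.343). Within the samples low in Mt_rRNA the ratio was 1.0, and within those high in Mt_rRNA it was 0.785, with 2 mice per group in each.

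Fragments that matched the genome and fragments that did not moved apart in control replicate 3. Matching fragments reached 78840, 101942, 109385 and 115244 RPM in activated samples and 83629, 110793, 61626 and 77230 RPM in control samples, and the groups overlapped (ratio 1.22, exact permutation test, p = 0.257, n = 4 per group). Over the left-out mice this ratio ranged from 1.12 to 1.37. Fragments without a match reached 33424, 41253, 48586 and 38712 RPM in activated samples. In control samples they reached 49896, 46860, 188357 and 30180 RPM (ratio 0.514, exact permutation test, p = 0.4). Control replicate 3 was far above all other samples. Without it the ratio was 0.957 (exact p = 0.771), and without control replicate 4 it was 0.426 (exact p = 0.0571). Between 62.6% and 74.9% of the 28S reads of the other 7 samples matched mm10, and 24.7% of those of control replicate 3.

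**Figure D1:**
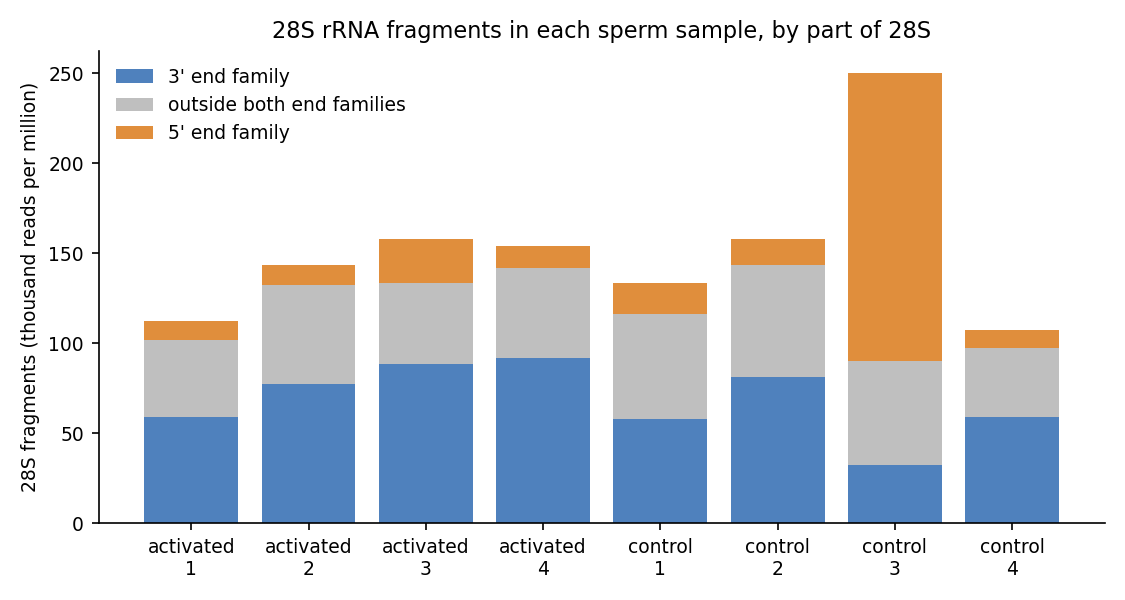
Level of 28S fragments in 1000 RPM (y axis) in each of the 8 sperm samples (x axis), with bars divided into the 3′ end family, the 5′ end family and all other 28S fragments. The 5′ end family of control replicate 3 reached 159952 RPM, whereas the remaining samples had 9927 to 24618 RPM.

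The 5′ end family did not match mm10 (0.0105% of its reads did). It had 582 fragments and 21.3% of the mean 28S level, but 10.3% without control replicate 3. Its sums were 10639, 10809, 24618 and 12033 RPM in activated samples and 17292, 14166, 159952 and 9927 RPM in control samples. Control replicate 3 lay far above every other mouse, and activated replicate 3 was the next highest. The means were 14525 ± 6757 RPM and 50334 ± 73141 RPM (SD, n = 4 each), a ratio of 0.289 (exact permutation test, p = 0.543). Without control replicate 3 the ratio turned to 1.05 (exact p = 0.914), and without control replicate 4 it was 0.228 (exact p = 0.171). Within the samples low in Mt_rRNA it was 0.941, and within those high in Mt_rRNA, to which control replicate 3 belongs, it was 0.200.

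The 3′ end family, with 816 fragments and 44.9% of the mean 28S level (53.2% without control replicate 3), matched mm10 almost throughout (99.6% of reads). Its sums were 58932, 77433, 88552 and 91720 RPM in activated samples and 57665, 80980, 32171 and 58773 RPM in control samples. Control replicate 3 was the lowest, and the groups overlapped. The means were 79159 ± 14811 RPM and 57397 ± 19954 RPM (SD, n = 4 each), a ratio of 1.38 (exact permutation test, p = 0.143). Without control replicate 3 the ratio was 1.2 (exact p = 0.257), and without control replicate 4 it was 1.39 (exact p = 0.2). Within the samples low and high in Mt_rRNA it was 1.08 and 1.85. As a share of 28S reads, the family made up 52.5%, 54.1%, 56.1% and 59.6% in the activated mice, whereas the controls had 43.2%, 51.4%, 12.9% and 54.7% (exact permutation test, p = 0.0857). Without control replicate 4 the share was higher in each activated sample than in each remaining control sample (exact p = 0.0286, the smallest possible), and without control replicate 3 p was 0.143.

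Fragments outside both end families summed to 42693, 54953, 44801 and 50205 RPM in activated samples and 58568, 62508, 57860 and 38710 RPM in control samples. Control replicates 1 to 3 lay above all activated samples, and control replicate 4 below them. The ratio of the means was 0.885 (exact permutation test, p = 0.343, n = 4 per group), and without control replicate 4 it was 0.807 (exact p = 0.0571, while the smallest p of 4 against 3 is 0.0286). Over the left-out mice it ranged from 0.807 to 0.931. Within the samples low and high in Mt_rRNA it was 0.918 and 0.857.

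**Figure D2:**
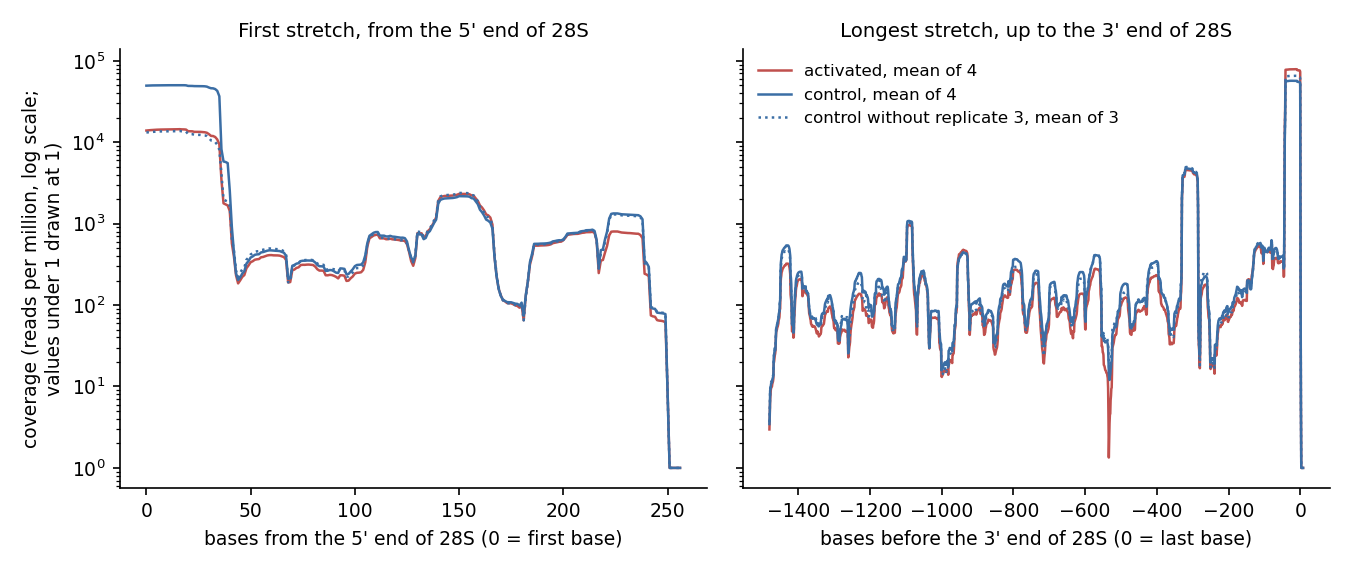
Coverage by 28S fragments in RPM (log scale) along the first 257 bases of 28S (left, x axis in bases from the 5′ end) and along the longest stretch (right, x axis in bases before the 3′ end), as means of the activated samples, the control samples and the control samples without replicate 3. Coverage was highest at the last bases of 28S and at its first bases, where the control mean came close to the activated mean once replicate 3 was left out.

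The leading 3′ fragment of 42 nt alone was 27.6% of the mean 28S level. It reached 35978, 47898, 55827 and 55418 RPM in activated samples and 35801, 50047, 19195 and 35800 RPM in control samples. Activated replicate 1 lay beside 2 of the controls, and the groups overlapped. Its log2 fold change was 0.37 (SE 0.36, edgeR quasi-likelihood test, adjusted p = 0.999). The 43, 44 and 45 nt fragments gave log2 fold changes of 0.45, 0.42 and 0.29, with an adjusted p of 0.999 each. The 42 nt form made up 65.7% to 68.5% of the reads that stopped at the 3′ end, the 43 nt form 11.6% to 13.2% the 44 nt form 14.4% to 16.4% and the 45 nt form 2.49% to 3.73%. Longer forms could not be seen, since reads over 45 nt were removed by the authors.

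The leading 5′ fragment of 36 nt was far more variable. It reached 1876, 2141, 15414 and 4060 RPM in activated samples and 6179, 2985, 101508 and 2497 RPM in control samples, which is 27960 to 943751 reads. Replicate 3 of each group was the highest of its group. The log2 fold change was -2.32 (SE 1.24, edgeR adjusted p = 0.834), and it turned to 0.62 without control replicate 3. The fragments of 34, 35 and 40 nt also depended on control replicate 3, with log2 fold changes of -1.60, -2.20 and -3.68 in all samples (edgeR adjusted p = 0.742, 0.711 and 0.616) and of 0.01, 0.20 and 0.15 without control replicate 3. The 37 nt fragment differed from them. It reached 2657, 1669, 886 and 1366 RPM in activated samples and 2134, 2426, 3205 and 1703 RPM in control samples, and activated replicate 3 was the lowest of the 8 mice (log2 fold change -0.53, SE 0.42, edgeR adjusted p = 0.999).

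The ladder at the 5′ end therefore had another shape in replicate 3 of both groups, a pattern that was chosen after its values were seen. The 36 nt form made up 18.3%, 21.5% and 35.5% of the reads that start at the 5′ end in activated replicates 1, 2 and 4, and 64.1% in activated replicate 3. In controls it made up 37.1%, 22.2% and 26.6% in replicates 1, 2 and 4, and 64.0% in replicate 3. The ratio of the 36 to the 37 nt form was 17.4 in activated replicate 3 and 31.7 in control replicate 3, against 0.706 to 2.97 in the other 6 samples. The ratio of the 30 to the 31 nt form was 2.20 and 2.65 in these mice, against 0.348 to 0.940 in the others. The ratio of the 40 to the 41 nt form was 0.538 and 3.19, against 0.163 to 0.349. Activation and control did not separate in any of the 3 ratios (exact permutation tests, p = 0.543, 0.657 and 0.857 for the pairs from short to long, n = 4 per group). The 95% Wilson intervals of such shares were at most 0.286 percentage points to either side, and they cover counting error only, because PCR copies could not be told from separate molecules.

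**Figure D3:**
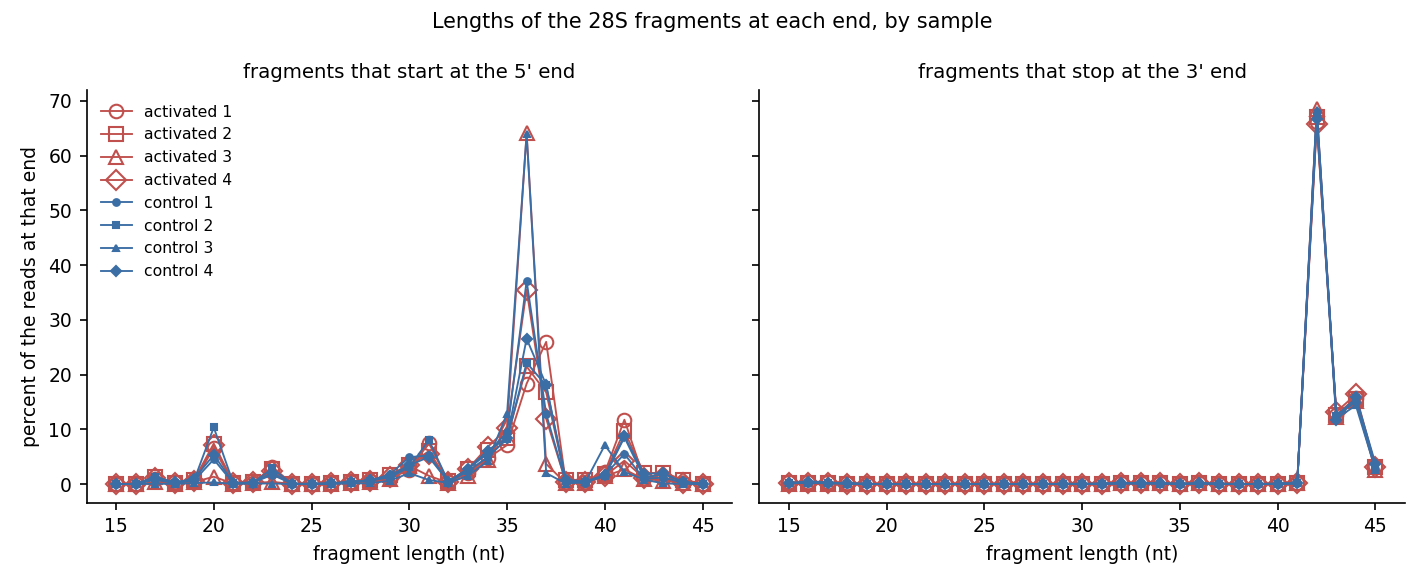
Percent of the reads that start at the 5′ end of 28S (left) or stop at its 3′ end (right) by fragment length in nt (x axis), with 1 line per sample and open markers for activated samples. The 5′ ladder peaked at 36 nt with 64.1% in activated replicate 3 and 64.0% in control replicate 3, while the 3′ ladder peaked at 42 nt with 65.7% to 68.5% in all samples.

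The bases just before the 28S sequence were also read. Fragments named 45S that ran into the 5′ end of 28S summed to 48.0, 31.2, 70.1 and 34.5 RPM in activated samples and 79.2, 37.7, 1015 and 42.4 RPM in control samples (ratio 0.157, exact permutation test, p = 0.286, n = 4 per group, and 0.865 with exact p = 0.571 without control replicate 3). Control replicate 3 was again the highest. Of all reads at this end, 0.279% to 0.635% carried upstream bases, and 11960 of the 14519 such reads had a single additional base. The other 45S fragments did not run into this end by at least 9 bases, and some may reach it by fewer. They were lower in every activated sample, with 1256, 994, 1223 and 1095 RPM. The controls had 1432, 1643, 3677 and 1372 RPM (ratio 0.562, exact permutation p = 0.0286, n = 4 per group). Without control replicate 3 the ratio was 0.770 (exact p = 0.0286).

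The second comparison asked whether fragments of certain lengths changed. Summed over all 28S fragments, the activated mean was lower at 27 of 31 lengths from 15 to 45 nt, but no length reached an unadjusted p under 0.05 (0.0% of the 31 lengths, lowest exact p = 0.114, lowest Benjamini-Hochberg adjusted p = 0.541). The 4 lengths with a higher activated mean were 42 to 45 nt, the lengths of the 3′ end ladder. Fragments of 42 nt reached 50692 RPM in activated and 37347 RPM in control samples on average (ratio 1.36, exact p = 0.171). Without control replicate 4, 3 lengths fell below an unadjusted 0.05, all lower in activated samples, and none passed adjustment (lowest adjusted p = 0.127). With TMM scaling some lengths also fell below an unadjusted 0.05, as given below under the processing. Among fragments matching the genome, those of 22 nt were lower in activated samples. They reached 585, 695, 548 and 697 RPM in activated samples and 796, 866, 942 and 699 RPM in control samples, so that the groups nearly touched (ratio 0.765, exact permutation p = 0.0286, adjusted p = 0.443 over 31 lengths). Without control replicate 4, matching fragments of 19, 21, 23, 27 to 30 and 38 nt also had an unadjusted exact permutation p of 0.0286. All of these were lower in activated samples, and this is the smallest p of 4 against 3. With control replicate 3 left out instead, the same lengths had an unadjusted exact p of 0.229 to 0.571, while 22 nt kept 0.0286.

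The third comparison asked whether certain parts of 28S changed. Of the 99 families, 85 had a lower and 14 a higher activated mean. The exact permutation test gave an unadjusted p of 0.0286 for 6 of them (6.06%), all lower in activated samples, and none after adjustment (lowest adjusted p = 0.471). This count rested on single mice, and it also rose or fell with the scaling used, as given below under the processing. It was 1 without activated replicate 1 or 3, 3 without activated replicate 4, and 23 without control replicate 4 (lowest adjusted p = 0.123). These families held little of the 28S reads, between 0.0864% and 0.651% each. Their leading fragments are shown because they are the ones to which these values belong. Of the 6, 5 lay in stretch 1, which held 28 of the 99 families, and this was not tested.

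Family 11, stretch 7, bases 223 to 239: gtggacggtgtgaggcc
Family 26, stretch 1, bases 1402 to 1435: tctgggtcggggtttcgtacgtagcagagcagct
Family 51, stretch 1, bases 849 to 880: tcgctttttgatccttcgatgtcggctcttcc
Family 57, stretch 1, bases 222 to 259: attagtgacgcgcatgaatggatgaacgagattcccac
Family 72, stretch 1, bases 782 to 802: gcaggaggtgtcagaaaagtt
Family 81, stretch 1, bases 805 to 848: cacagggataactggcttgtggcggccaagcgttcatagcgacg

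Family 11 was the most abundant of these. It summed to 636, 889, 576 and 814 RPM in activated samples and 1450, 1030, 1363 and 1157 RPM in control samples, a ratio of 0.583 (exact permutation p = 0.0286, adjusted p = 0.471). Families 72, 81 and 51 followed each other between bases 782 and 880 of stretch 1. Family 51 summed to 137, 141, 157 and 139 RPM in activated samples and 311, 181, 395 and 179 RPM in control samples (ratio 0.538). Activated samples were close to each other, whereas control replicates 1 and 3 were the highest. Family 72 reached 87.9 to 127 RPM in activated and 149 to 210 RPM in control samples (ratio 0.622), and family 81 reached 101.4 to 117.7 and 117.9 to 200.4 RPM (ratio 0.708). Families 57 and 26 had ratios of 0.582 and 0.750, and for family 26 p was 0.0571 without control replicate 3 (exact permutation test). Family 26 lay next to the 3′ end family, which had a ratio of 1.38.

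Among the abundant inner families, no difference between activated and control samples was larger than the spread between mice. Family 3 summed to 6249 to 7129 RPM in activated and 4801 to 7922 RPM in control samples (ratio 1.04, exact p = 0.743). Family 4 had a ratio of 0.957 (exact p = 0.8), family 5 of 1.07 (exact p = 0.771), family 6 of 0.879 (exact p = 0.6), family 7 of 1.07 (exact p = 0.657) and family 8 of 0.862 (exact p = 0.429). Without control replicate 3 the 6 ratios lay between 0.798 and 1.26, and without control replicate 4 between 0.793 and 1.02, with an exact p of 0.257 or more in each case. The leading fragments of these families had edgeR log2 fold changes from -0.38 to 0.18, with an adjusted p of 0.999 each.

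**Figure D4:**
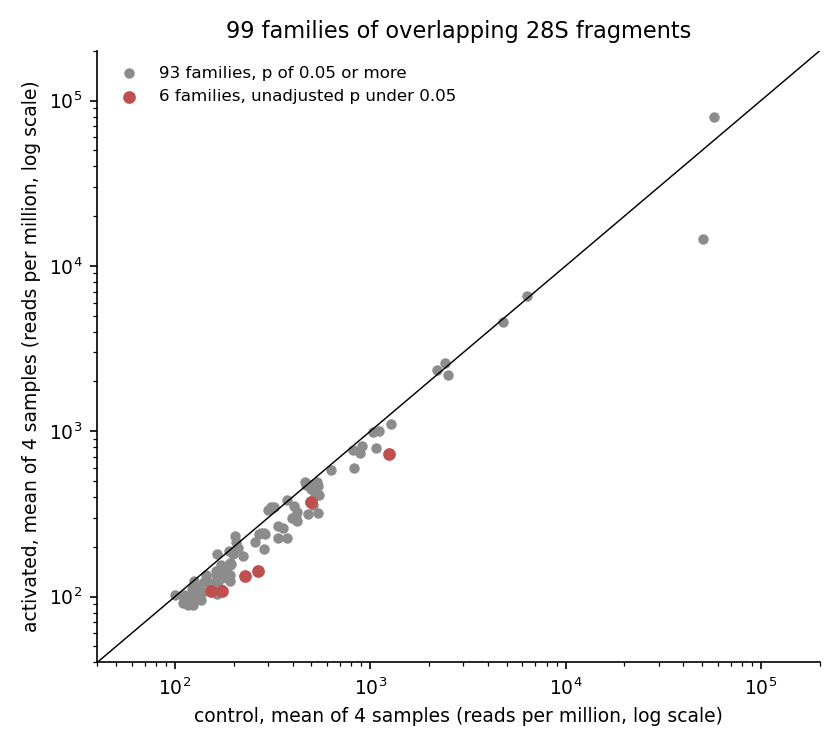
Mean RPM of the 99 families of overlapping 28S fragments in activated samples (y axis) against control samples (x axis), both on log scales, with a line where they are equal. The 6 families with an unadjusted p under 0.05 lie below the line, and the 2 most abundant families are those of the 3′ end (above it) and the 5′ end (below it).

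The fourth comparison tested each fragment. EdgeR's quasi-likelihood test, with an adjusted p under 0.05 over all 12077 sequences and a log2 fold change beyond 1, called 0 of 1837 28S fragments, while it called 0.505% of all sequences. The lowest adjusted p of a 28S fragment was 0.226. At an unadjusted p under 0.05, 89 of the 28S fragments (4.84%) were lower and 1 (0.0544%) was higher, against 4.12% and 3.12% of all sequences. With a log2 fold change below -1 as well, 55 were lower (2.99%), whereas 3.34% of all sequences passed this limit. Without control replicate 3, 18 were lower at this limit (1.03%, against 2.12% of all sequences). With any other mouse left out, 41 to 64 were lower (2.38% to 3.69%, against 1.87% to 5.12% of all sequences). DESeq2 with apeglm, the tool of the study, called 6 of the 28S fragments lower, which is 0.327% of them, against 0.373% of all sequences. Of these 6, 2 reached 50 reads in the 4 control samples alone, so that they entered the test only through the group in which they were high and their direction was fixed by the filter. DESeq2 called none of the 28S fragments higher, against 1.61% of all sequences. It gave no adjusted p for the 5′ end fragments of 34, 35, 36 and 40 nt, so that it could not call them. Groups did not overlap for 43 of the 28S fragments below control (2.34%, against 1.47% of all sequences) and for 8 above control (0.435%, against 2.52% of all sequences). Of the 1837 tested 28S fragments, 5 passed the filter through the controls alone and 0 through the activated samples alone. Of all 12077 sequences, 19 and 88 did so. Their direction was favoured by the filter, and they were not removed from the counts of lower and higher fragments.

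Most 28S fragments had a fold change below 0 without passing a test. The log2 fold change was negative for 1323 of 1837 (72.0%, against 49.0% of all sequences), with a median of -0.22, against 0.01 over all sequences. Fragments of 28S overlap each other and are not independent. The share was 66.9% with library size alone and 58.4% when 28S fragments were scaled among themselves, which moved their median by more than 0.1 to -0.08. Without control replicate 2 it was 56.6%, and without activated replicate 3 it was 59.5%. Of the tested fragments in the 5′ end family, 73 of 78 were lower (median -0.55). In the 3′ end family 37 of 100 were lower (median 0.23), and outside both 1213 of 1659 were lower (median -0.22). By length, the fragments below 0 were 469 of 586 for 15 to 20 nt, 524 of 693 for 21 to 30 nt, 250 of 404 for 31 to 40 nt and 80 of 154 for 41 to 45 nt. Fragments that matched the genome (546 of 749) and those that did not (777 of 1088) are given side by side, and differences between these subsets were not tested.

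The 6 fragments that DESeq2 called are shown with the largest falls and the largest rise among fragments whose groups did not overlap and whose unadjusted edgeR p was under 0.05. Only 1 rise met that rule. Capitals mark the letters GGCC, which read the same on both strands.

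Stretch 5, bases 109 to 128, called: aaacgagaactttgaaGGCC
Stretch 5, bases 110 to 128, called: aacgagaactttgaaGGCC
Stretch 5, bases 109 to 132, called and a largest fall: aaacgagaactttgaaGGCCgaag
Stretch 5, bases 109 to 127, largest fall: aaacgagaactttgaaggc
Stretch 7, bases 220 to 239, called: cccgtggacggtgtgaGGCC
Stretch 7, bases 219 to 240, largest fall: gcccgtggacggtgtgaGGCCg
Stretch 1, bases 782 to 801, called: gcaggaggtgtcagaaaagt
Stretch 4, bases 366 to 389, called: gtggcgcaatgaaggtgaagGGCC
Stretch 1, bases 374 to 399, largest rise: agaggtgtagaataagtgggaGGCCc

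The letters GGCC were found in 674 of the 1837 tested 28S fragments (36.7%) and at the end of 68 (3.70%). Of the 6 called fragments 5 held them and 4 ended in them, which was noticed after the calls and was not tested. Among tested 28S fragments of the same length they were held by 25 of 89 of 19 nt, 29 of 89 of 20 nt, 31 of 78 of 22 nt, 25 of 66 of 24 nt and 23 of 58 of 26 nt.

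The most abundant called fragment was the one of 24 nt in stretch 4, which matched mm10. It reached 28.1, 28.4, 27.2 and 34.8 RPM in activated samples and 76.4, 49.1, 87.2 and 58.1 RPM in control samples, from 327 to 1135 reads. Activated samples were close to each other, and the groups did not overlap. Its log2 fold change was -1.23 (SE 0.32, edgeR adjusted p = 0.237), and DESeq2 gave an adjusted p of 0.00115. Leaving out each mouse in turn, the edgeR log2 fold change stayed between -1.36 and -1.07, with an adjusted p from 0.252 to 0.716.

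A single site in stretch 5 gave 3 of the 6 calls, and their reads are not independent evidence of each other's direction. The 20 nt fragment reached 19.7, 12.6, 10.6 and 11.6 RPM in activated samples and 29.1, 30.1, 31.9 and 47.7 RPM in control samples. Control replicate 4 was the highest and activated replicate 1 the highest of its group. The log2 fold change was -1.44 (SE 0.44, edgeR adjusted p = 0.397, DESeq2 adjusted p = 0.0479). The 19 nt form that begins a base later had a log2 fold change of -1.59 (DESeq2 adjusted p = 0.0451) and the 24 nt form of -1.68 (DESeq2 adjusted p = 0.0334). The 24 nt form was rare, with 10 to 36 reads in activated and 59 to 77 reads in control samples. It was one of those tested only because all controls reached 50 reads, so its call is no evidence of its direction. The form that stops a base earlier, at base 127, had a log2 fold change of -1.73 without a call (DESeq2 adjusted p = 0.118). None of the 4 matched mm10.

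The called fragments of stretches 7 and 1 lay in families 11 and 72. The one in stretch 7 reached 1.81, 2.97, 2.71 and 2.66 RPM in activated samples and 4.99, 5.84, 7.31 and 5.16 RPM in control samples (log2 fold change -1.29, SE 0.33, edgeR adjusted p = 0.226, DESeq2 adjusted p = 0.0112). The one in stretch 1, which matched mm10, reached 1.54, 1.49, 2.78 and 2.98 RPM in activated samples and 7.33, 4.89, 8.71 and 3.97 RPM in control samples (log2 fold change -1.52, SE 0.40, edgeR adjusted p = 0.252, DESeq2 adjusted p = 0.0136). Both rested on 23 to 135 reads per sample. The one in stretch 1 also reached 50 reads in the controls alone (23 to 41 reads in activated samples), so its call is no evidence of its direction either. The 22 nt form in stretch 7 had a larger log2 fold change of -2.01, but it reached 31.2 RPM in control replicate 3 and 4.28 to 8.08 RPM in the other controls, and DESeq2 gave an adjusted p of 0.117.

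The largest rise was the 26 nt fragment of stretch 1, which matched mm10. It reached 25.8, 37, 71.1 and 27.8 RPM in the activated mice, while the controls had 22.3, 22, 21.1 and 17 RPM. The groups did not overlap, and activated replicate 3 was the highest. The log2 fold change was 0.87 (SE 0.35, edgeR adjusted p = 0.641, DESeq2 adjusted p = 0.302), so that it passed neither test.

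**Figure D5:**
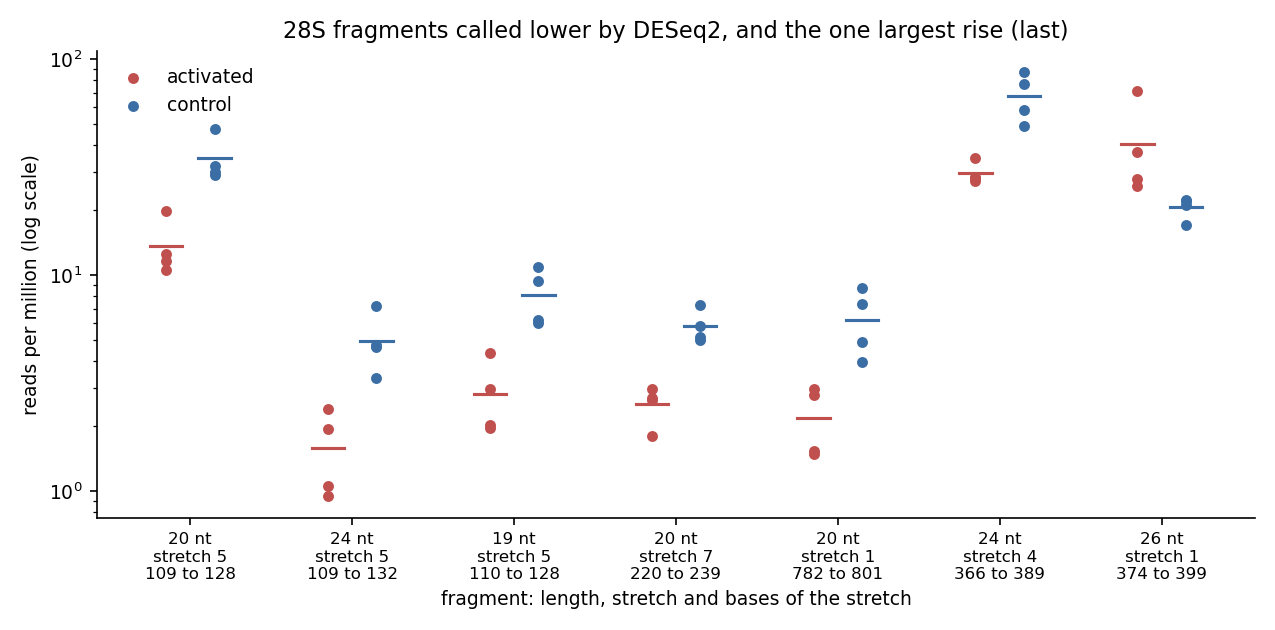
RPM (log scale) of the 6 28S fragments that DESeq2 called lower and of the largest rise (last), with 1 point per mouse and a line at each group mean. Activated samples lie below control samples for the first 6 fragments and above them for the last, and levels range from 0.949 to 87.2 RPM.

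The last comparison set 28S beside the other rRNAs. Of all reads named as an rRNA, 28S made up 73.0%, 56.6%, 61.8% and 77.4% in the activated mice, whereas the controls had 57.8%, 74.7%, 68.8% and 70.3%, with means of 67.2% ± 9.67 and 67.9% ± 7.17 (SD, n = 4 each, exact permutation test, p = 0.943). The lowest shares were in samples rich in Mt_rRNA, which follows in part from the total, since it includes the mitochondrial rRNA reads. The share of 18S rRNA was 7.01% in activated and 8.04% in control samples on average (exact permutation p = 0.4, n = 4 per group), and that of 5.8S rRNA was 1.75% and 2.0% (exact p = 0.457). Without control replicate 3 the ratios of the 18S and 5.8S shares were 0.811 and 0.824 (exact p = 0.257 and 0.314), and without control replicate 4 they were 0.909 and 0.920 (exact p = 0.6 and 0.686). Of the tested fragments, 77.9% of 479 from 18S and 72.8% of 103 from 5.8S had a log2 fold change below 0, beside the 72.0% of 28S. The share was 79.8% of 208 from 5S, 57.9% of 19 from 4.5S and 95.2% of 63 from the 45S precursor. The mitochondrial rRNAs went the other way, with 31.2% of 1239 named 16S and 10.7% of 206 named Mt_rRNA below 0. The difference between these rRNAs was not tested. Of the 9 rRNA names compared by their summed RPM, only 45S had groups that did not overlap (ratio 0.511, exact permutation p = 0.0286, adjusted p = 0.257 over the 9, n = 4 per group).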

How the data were processed

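Small RNA of sperm was sequenced from 100 ng of RNA as single reads of 50 bp, 1 library for each of 8 mice, grouped by the titles in the labels, which also give the genotype. The authors ran SPORTS1.1 at default settings. Reads of 15 to 45 bp were kept with duplicates and matched with 0 mismatches to mm10 and to miRNA, rRNA, tRNA, piRNA and other RNA sequences. The deposited tables give counts, that is raw reads for every distinct sequence, with its annotation and genome match. The authors' summary tables give expected counts per class, which divide some reads among RNAs, and were used only to check the 28S and total reads, which were equal. Neither is normalized. Total reads ranged from 9297271 to 23123740.

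RPM relate to all reads of the sample. No row named 28S beside another RNA. Overlaps of 18 nt joined fragments into stretches. EdgeR 4.0.16 (TMM scaling, quasi-likelihood test) in R 4.3.3 was fitted on all sequences with at least 50 reads in 4 samples, with Benjamini-Hochberg adjustment, a threshold of 0.05 and a minimum log2 fold change of 1. The alternative tool was DESeq2 1.42.0, with shrinkage by apeglm 1.24.0. Scripts were tested on simulated data. For sums, all 70 ways to split the mice 4 and 4 were enumerated (exact permutation test, two-sided). Python 3.11.15 was used with matplotlib 3.10.9, pandas 2.3.3 and numpy 2.4.6. Named fragments were the 10 most abundant, those called by DESeq2 since edgeR called under 5, up to 3 falls and 3 rises without overlap, and the leading fragments of 8 families. The members, lists and tests were chosen with earlier results of these data known. Alternatives were other scalings, denominators, filters and lengths, a replicate block, the 2 sets of samples by Mt_rRNA share (split at 0.5%), and leaving out each sample. Their use for the end families was added after the data were examined.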

Additional observations from a re-analysis of the deposited data

Results flagged for a closer look

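Within each group of 4 mice, 82 groups of values were examined for a sample far from the others (a gap to the nearest mouse above Dixon's critical share of the range), and 17 were marked. Chance marks about 1 in 20 groups, and the values at the 5′ end are not independent of each other. Most of them concern replicate 3 of a group at the 5′ end. In control replicate 3, 28S fragments without a genome match reached 188357 RPM (30180 to 49896 RPM in the other controls), the 5′ end family 159952 RPM (9927 to 17292) and all fragments that start at the 5′ end 158716 RPM (9404 to 16656). Its 34, 35, 36 and 40 nt fragments reached 6552, 20454, 101508 and 11281 RPM. Its ratio of 36 to 37 nt was 31.7 and of 40 to 41 nt 3.19. The 22 nt fragment of stretch 7 reached 31.2 RPM in the same mouse.

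In activated replicate 3 the 5′ end family reached 24618 RPM (10639 to 12033 RPM in the other activated mice), all fragments starting there 24053 RPM, and the 36 nt fragment 15414 RPM (1876 to 4060). Its ratio of 36 to 37 nt was 17.4 and of 30 to 31 nt 2.20. Both mice are in the set rich in Mt_rRNA, as are activated replicate 2 and control replicate 1. The 20 nt fragment of stretch 5 reached 47.7 RPM in control replicate 4 (29.1 to 31.9 RPM in the other controls), the mouse with the highest muscle and epithelium miRNAs. The 24 nt fragment of stretch 4 reached 34.8 RPM in activated replicate 4 (27.2 to 28.4 RPM in the other activated mice).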

How the results depend on the processing

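The call of 0 fragments by edgeR became 6 lower with DESeq2 and apeglm and 39 lower with a minimum of 1 read in 4 samples (0.104% of 28S fragments, against 0.272% of all sequences), and it was 0 under every other alternative, leaving out each mouse included (0 to 0). Replicate numbers are given in both groups but not every same-numbered pair deviated together. The correlations were -0.63 and -0.55 for numbers 1 and 2 and 0.59 and 0.51 for numbers 3 and 4, so the numbers were not taken as pairs. The replicate block called 0 fragments, with 35 lower (1.91%, against 1.63% of all sequences) and 2 higher (0.109%, against 2.14%) at an unadjusted p under 0.05 and the fold minimum. For the sums, 16 sign flips of 4 pairs cannot give a p under 0.125 and leave the ratios as they are, so this replicate block says nothing about them. No row named 28S beside another rRNA, so adding such rows gave no value. The ratio of all 28S RPM turned to 1.0 within the samples low in Mt_rRNA, and ranged from 0.786 to 1.07 over the left-out mice. The 5′ end family ranged from 0.222 to 1.05. The ratio of 28S among rRNA reads (0.990) became 1.02 without mitochondrial rRNA and ranged from 0.940 to 1.04. The count of lengths at an unadjusted p under 0.05 was 2 with TMM scaling and 0 to 3 over the left-out mice. The count of families was 12 with TMM scaling and 2 when scaled to 28S reads, and 1 to 23 over the left-out mice. Among fragments, those of 34, 35, 36 and 40 nt at the 5′ end reversed when a mouse was left out (-1.87 to 0.012, -2.67 to 0.20, -3.34 to 0.62 and -4.07 to 0.15). The fragment agggcgccctggaat, at -0.02, was above 0 with DESeq2 (0.011), median-ratio factors (0.046), library size (0.035), a minimum of 1 read (0.022), the replicate block (0.011), the Mt_rRNA set as covariate (0.010) and 28S fragments alone (0.14), and ranged from -0.19 to 0.35 over the left-out mice. The fragment atcccggggccgagga, at -0.14, became 0.024 with 28S fragments alone and ranged from -0.42 to 0.18. The causes were not tested. Of the other values of single fragments under alternatives, 349 kept their direction and side of the threshold and 9 passed it.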

Other observations

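Fragments ending in GGCC were looked at after the calls had been seen, so that their counts are a description without a test. Of the 68 tested 28S fragments with this end, at 22 positions, 63 had a log2 fold change below 0 (median -0.42), against 1260 of 1769 without it (median -0.21). They include 4 of the 6 fragments that DESeq2 called. Among the 46 tested sequences of other annotations with this end, 25 were below 0 (median -0.09). The most abundant of these positions was base 239 of stretch 7, with 591 RPM and a median of -0.91 over its 10 tested fragments, all below 0. The next was base 422 of stretch 4, with 270.0 RPM, where 6 of 7 were below 0 and the median was -0.09.

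Outside both end families, 41.8% of reads ended in C, 24.4% in T, 21.6% in G and 12.2% in A on average over the 8 samples. Ends in C ranged from 38.9% in activated replicate 3 to 43.6% in activated replicate 2. The most frequent last base inside 28S, base 46 of stretch 2, took 4.79% of the level outside both end families, and the next, base 1196 of stretch 1, took 3.49%.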
